A study of Mus musculus with 20 samples.

Results

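Mice given short carbon nanotubes (SNT, titled NTS in the labels) were compared with mice given the vehicle alone (VC, titled control), which is 8 of the 20 arrays of the series, 4 in each group. All mice were female C57Bl/6 and 8 weeks old at a single injection into the pleural cavity. SNT mice received 5 μg of nanotubes in 100 μL of saline with 0.5% bovine serum albumin, VC mice received 100 μL of that saline and albumin with no fibers, and the diaphragm was taken 12 weeks later. The 8 arrays were chosen by these labels and by no measured value. They and the gene lists below were chosen with earlier results of these data known. The comparison asked whether short nanotubes left a change in diaphragm RNA. Each array held the RNA of 1 mouse. As further reference, SFA mice received 25 μg of short amosite asbestos and LNT mice 5 μg of long carbon nanotubes. Vehicle and time were the same, so that SNT and LNT shared a mass dose and SNT and SFA did not. The 4 LFA mice received 25 μg of amosite asbestos enriched for long fibers, in the same vehicle and for the same time. Their arrays entered the probe filter, the fit over all 20 arrays and the plot of liver genes, but LFA was not compared with SNT here. SNT was 1 purchased sample and LNT 1 sample from an academic laboratory, so length cannot be told apart from source. RNA came from the frozen portion of each diaphragm, all cell types together, which means that fewer cells of a type and less RNA per cell cannot be told apart.

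The diaphragm is a sheet of striated muscle that attaches at its rim to the costal cartilages, carries pleural mesothelium on its upper face, and lies against the liver on its lower face. Long fibers that reach the pleural cavity are retained at the parietal pleura, where phagocytes fail to enclose them and release chemokines and cytokines. Short fibers can be engulfed and can leave through openings in the parietal pleura that drain to the lymph.

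Levels are log2 intensities relative to the 75th percentile of the array, so a level of 0 is the brightness below which 75% of the probes fell and a difference of 1 is 2-fold. That percentile lay at an intensity of 380 to 487 on the SNT arrays and 294 to 648 on the VC arrays, and 56.3% to 68.1% and 53% to 64.5% of the spots, respectively, were well above background. VC replicate 2 and SNT replicate 4 stood apart from their groups. Over the tested probes without a missing value, VC replicate 2 lay apart from the other VC arrays by Dixon's criterion for 12.3% of probes and SNT replicate 4 from the other SNT arrays for 7.46%, against at most 1.37% for any other of the 8 arrays. Both also read lowest on an index of probes far from the 3′ end against probes near it, at −1.58 and −1.44 against −0.92 to −0.64 on the other 6. SNT replicates 1 and 2 shared a slide with VC replicates 1 and 2, SNT replicates 3 and 4 shared another with VC replicate 4, and the slide of VC replicate 3 held none of the SNT arrays. The tissue label matched the muscle markers, with mean levels of the fast muscle genes of 6.73 to 7.02 in VC and 5.88 to 7.52 in SNT, whereas the 5 measured genes of lung epithelium were at −2.15 to −1.63 and −2.34 to −1.78.

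No probe was called in SNT against VC, that is, 0 of 36930 tested probes (0%) met both criteria of a call, a difference of 2-fold or more and an adjusted p (Benjamini-Hochberg, over all probes) below 0.05 in limma. The smallest adjusted p in limma was 0.999925. At an unadjusted p under 0.05 there were 1288 probes (3.49%), 616 higher (1.67%) and 672 lower (1.82%) in SNT. That 3.49% is below the share of 0.05 that this threshold passes when no probe differs, so the counts show no excess of differences. The smallest unadjusted p in limma was 0.000131. Differences of 2-fold or more without regard to p were found for 2021 probes, of which 142 passed an unadjusted p under 0.05 in the unequal-variance test named in the study's methods and 0 remained after Benjamini-Hochberg adjustment. The median difference over all probes was −0.057 and the median standard error 0.40. For 14168 probes (38.4%) the 95% interval of the difference lay within 2-fold in either direction, while for the rest it reached past 2-fold. The spread within SNT, with a median SD of 0.63 over probes, was larger than the 0.56 of VC, the 0.50 of SFA and the 0.43 of LNT.

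With each gene represented by its brightest probe, 18217 genes were measured, of which 1.77% read higher and 2.23% lower in SNT at an unadjusted p under 0.05, and 39.8% had a positive difference. The interval lay within 2-fold for 45.4% of genes. These shares are the background for every gene list below, where a gene is said to have passed at an unadjusted p under 0.05 in limma. Every SNT array lay above every VC array for 106 genes (0.582%) and below every VC array for 223 (1.22%). The 12 genes with the largest differences in each direction were taken from those with no overlap, an unadjusted p under 0.05 and all 4 arrays of the higher group above background, a selection that fixes their direction. Among the 12 higher genes, SNT also read above SFA at an unadjusted p under 0.05 for 10, and 7 were called lower in LNT than in SNT. Among the 12 lower genes SNT also read below SFA for 3, and 3 were called higher in LNT than in SNT. These comparisons share the SNT arrays with the one that chose the genes. Of the 50 genes with an unadjusted p under 0.05 that were named by the rule, 27 no longer passed when some single array of the 2 groups was left out. With normexp background correction, which adds an offset and so shrinks differences of dim probes, 8 no longer passed and 18 moved by over 1.5 times. Cytl1, Ddit4, Dusp18, Foxo1, Hdc, Map3k6, Mcf2l, Mia, Nr4a1, Nr4a2, Sik1, Tm6sf2 and Zdhhc23 were the 13 that passed in all of these and moved less.

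**Figure D1:**
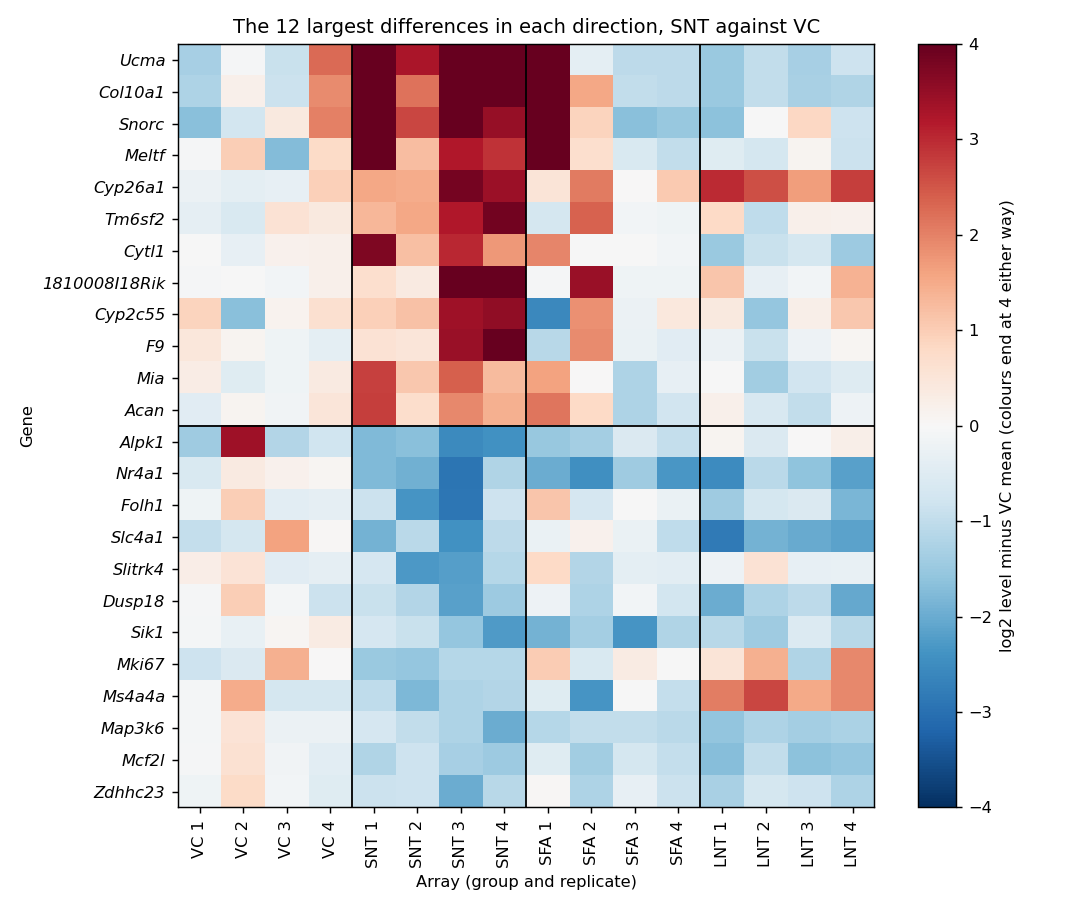
Levels of the 24 genes with the largest differences between SNT and VC that passed the naming rule, as log2 level minus the mean of the 4 VC arrays, with a row per gene and a column per array of VC, SNT, SFA and LNT. The upper block is red on all SNT arrays and on SFA replicate 1 for the cartilage genes, the liver genes are reddest on SNT replicates 3 and 4, and in the lower block several genes, Nr4a1, Sik1 and Map3k6 among them, are as blue in SFA and LNT as in SNT.

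Liver transcripts were far higher on SNT replicates 3 and 4 than on any other of the 8 arrays. Alb, which encodes serum albumin, the main secreted protein of hepatocytes, was at 0.73, −0.68, 10.14 and 9.82 on the SNT arrays and at 6.68, −1.09, −0.72 and 0.98 on the VC arrays. Thus 2 SNT arrays lay above every VC array, VC replicates 1 and 4 lay above the remaining SNT arrays, and the groups overlapped. All 20 listed liver genes had a positive difference, with a median of 3.84 against −0.085 over all genes, but 0 of 20 passed an unadjusted p under 0.05. Their mean level was −1.44, −2.92, 7.08 and 7.37 on the SNT arrays and 2.70, −2.15, −2.71 and −1.56 on the VC arrays. For Alb the difference was 3.54 with a 95% interval of −2.69 to 9.77. On SNT replicates 1 and 2 alone the median difference of the list from VC was −1.09, so its sign turned. With VC replicate 1, the VC array highest in liver genes, left out as well, it was 0.22. That last setting was chosen after the data were seen. SNT replicates 1 and 2 lay on the slide of VC replicate 1, and both liver-rich SNT arrays on the slide of VC replicate 4.

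**Figure D2:**
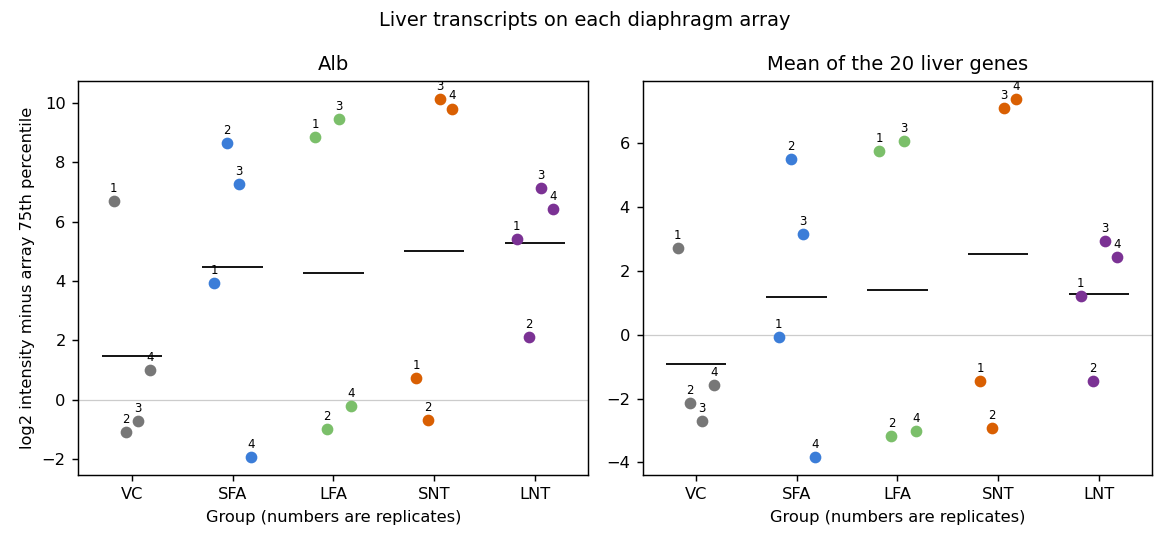
Alb and the mean of the 20 liver genes on each of the 20 arrays by group, in log2 intensity minus the array's 75th percentile; points are arrays numbered by replicate and bars are group means. SNT replicates 3 and 4 are the highest arrays of the series in both panels, and every group holds arrays on either side of a level of 4 for Alb.

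Several of the largest differences belonged to genes expressed in liver. F9, which encodes coagulation factor IX, was at −1.03, −1.12, 1.86 and 2.58 in SNT and −1.14, −1.49, −1.78 and −1.98 in VC. Replicates 3 and 4 lay far above the other SNT arrays, which exceeded the highest VC array by little. Tm6sf2, a regulator of hepatic lipid export, was 2.49 ± 0.77 higher (difference ± SE), Cyp2c55, a cytochrome P450, 2.26 ± 0.99, and 1810008I18Rik 2.41 ± 0.97. Without SNT replicates 3 and 4 these differences were 0.52 for F9, 1.45 for Tm6sf2, 1.06 for Cyp2c55 and 0.52 for 1810008I18Rik. Cyp26a1, which degrades retinoic acid, stood at −3.00, −3.07, −0.73 and −1.13 in SNT against −4.78, −4.94, −4.88 and −3.61 in VC, where it was above background on 2 of 4 arrays. All SNT arrays were higher and the 2 liver-rich ones the highest. Its difference of 2.57 ± 0.55 (unadjusted p = 0.000198) was 1.52 without those arrays and 1.13 with normexp, and the mean in LNT was −2.05. Complement genes made in liver were high on the same arrays, and Cfi, Hc, C8a and C9 differed by 3.89, 3.64, 3.26 and 2.72 with unadjusted p from 0.112 to 0.146, while C1qb and C3, which macrophages and other tissue cells also make, were at −0.019 and 0.28. None of the 15 measured complement genes passed, and 12 had a positive difference. In the list of 13 NRF2 and antioxidant genes 1 passed. Gclm, a subunit of the enzyme that starts glutathione synthesis, was at −1.51, −0.99, 0.71 and 1.02 in SNT and −1.19, −1.70, −1.20 and −1.35 in VC, again high on replicates 3 and 4, with replicate 1 inside the VC range and replicate 2 just above it, and its difference of 1.17 was 0.77 without replicate 4. With the mean of the liver list as a covariate in the fit, 11 of the 12 higher and 10 of the 12 lower genes named above had an unadjusted p under 0.05, and without SNT replicates 3 and 4 this held for 8 and 6. Since all were chosen at that threshold, these counts only describe the fits.

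Cartilage genes held the largest differences among the 12 higher genes. Ucma, a secreted protein of growth plate and costal cartilage, was at 0.54, −3.12, −0.78 and −1.63 on the SNT arrays and −7.73, −6.46, −7.29 and −4.14 on the VC arrays (probe on chromosome 2, 4906712 to 4906771, NCBI37). No SNT array overlapped VC, where only replicate 4 was above background, and the means differed by 5.15 ± 1.25 (unadjusted p = 0.000658). As 3 VC arrays did not measure it, the size of this difference rests on background values, and with normexp it was 2.20. Col10a1, the collagen of hypertrophic chondrocytes, was at 0.62, −4.04, −0.63 and −2.09 in SNT and −7.43, −5.99, −7.06 and −4.32 in VC. Snorc, a chondrocyte membrane proteoglycan, read −0.13, −3.00, −1.05 and −2.17 in SNT and −7.35, −6.38, −5.27 and −3.65 in VC. For all of these replicate 1 was the highest SNT array, replicate 2 the lowest, and VC replicate 4 the highest VC array, the 1 VC array above background. With normexp the differences of Col10a1 and Snorc were 1.94 and 1.61. Cytl1, a cytokine-like protein of chondrocytes that was above background on every array, was at 4.05, 1.53, 3.31 and 2.05 in SNT and within −0.031 to 0.51 in VC, a difference of 2.43 ± 0.55 (5.37-fold, unadjusted p = 0.000359).

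A list of 19 cartilage genes was drawn up after these genes had been seen, so its counts are a description. Of 17 measured, 6 read higher at an unadjusted p under 0.05, 14 had a positive difference, and the median was 0.99. The median was 0.61 without SNT replicate 1, 1.53 without SNT replicate 4, 1.65 without SNT replicates 3 and 4, and 0.67 with normexp. Acan, the large proteoglycan aggrecan, was 1.70 ± 0.57 higher (0.85 with normexp) and Mia, a secreted chondrocyte protein, 1.87 ± 0.51. Col2a1, the main cartilage collagen, had a difference of 3.35 that spanned −0.098 to 6.79 and overlapped VC through replicate 4 at −1.16. By contrast Sox9, the transcription factor of chondrocytes, was at −0.46, Hapln1, which links aggrecan to hyaluronan, at −0.063, and Col9a1, a minor cartilage collagen, at −0.10. The mean level of the list was −0.57, −2.28, −1.63 and −2.28 on the SNT arrays against −4.03, −3.44, −3.35 and −2.41 on the VC arrays. The order of the arrays differed from that of the liver list, since SNT replicate 1 was far below SNT replicates 3 and 4 in liver genes and above them in cartilage genes.

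Cartilage transcripts were also high on single arrays of other groups. SFA replicate 1 read −0.67 in Ucma, inside the SNT range, and 0.82 in Col10a1, above it, while SFA replicates 2 to 4 lay between −7.44 and −6.80 in Ucma. In LNT, Ucma lay at −7.89 to −7.22. Of the 17 cartilage genes 8 were called lower in LNT than in SNT, where 2.51% of all genes were, but the list was drawn from these same SNT arrays and nothing is read from the count. Within the slide of SNT replicates 1 and 2 the difference in Ucma from VC was 5.80, within that of replicates 3 and 4 it was 2.93, and without replicates 3 and 4 it was 5.11. The median of the 17 cartilage genes was 1.87 within the slide of SNT replicates 1 and 2. Within the slide of SNT replicates 3 and 4, where VC replicate 4 was the only VC array, it was 0.12. Meltf, a membrane transferrin-like protein that followed the same arrays, was 3.01 ± 0.91 higher, above background on 1 VC array, and 1.18 with normexp.

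Some immediate early genes read lower in SNT. These genes encode transcription factors and feedback phosphatases that are transcribed within minutes of a stimulus. Of 20 listed, 18 were measured and 7 read lower in SNT at an unadjusted p under 0.05, against 2.23% of all genes, and 0 read higher. The median of the list was −0.47, and 4 of the 18, Nr4a1, Klf4, Nr4a2 and Ier3, had every SNT array below every VC array, against 1.22% of all genes. Nr4a1, an orphan nuclear receptor induced by calcium and cyclic AMP, was at 4.89, 5.84, 5.67 and 5.55 on the VC arrays and 3.71, 3.58, 2.57 and 4.27 on the SNT arrays (probe on chromosome 15, 101105071 to 101105130, NCBI37). The groups did not overlap, and SNT was 3.88-fold lower, with a log2 difference of −1.96 ± 0.41 and an unadjusted p of 0.000139. With limma array weights, which lower the influence of arrays that scatter (SNT replicate 4 and VC replicate 2 received the lowest weights of these 8, 0.168 and 0.185), Nr4a1 was 1 of 2 called probes, at −1.91 and an adjusted p of 0.0495. The other was 3830403N18Rik, 1.36 higher. With these weights 3995 probes were higher in SNT at an unadjusted p under 0.05 in limma, against 616 without them. The weighted fit also called 5861 probes between SNT and SFA, against 0 without weights.

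The promoter stretches of 4 members whose arrays are given in full are shown because Nr4a1, Nr4a2 and Dusp1 are known targets of CREB, the factor that binds the cyclic AMP response element TGACGTCA or its partial forms TGACG and CGTCA. Each stretch holds the 250 bases before the annotated start, 5′ to 3′ along the gene, from RefSeq on GRCm38.p6, with the partial forms in capitals. Among 32851 such windows of all genes, 17.8% held at least 1 partial form on either strand, 3.9% at least 2, 0.137% at least 4, and 1.55% the full element, which itself contains both partial forms.
Nr4a1, chr15:101266596-101266845, plus strand: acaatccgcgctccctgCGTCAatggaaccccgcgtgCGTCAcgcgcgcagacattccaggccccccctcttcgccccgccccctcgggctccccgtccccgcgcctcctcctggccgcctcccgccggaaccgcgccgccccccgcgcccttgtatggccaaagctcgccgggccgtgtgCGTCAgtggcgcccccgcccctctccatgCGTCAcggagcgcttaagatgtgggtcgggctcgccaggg
Nr4a2, chr2:57124004-57124253, minus strand: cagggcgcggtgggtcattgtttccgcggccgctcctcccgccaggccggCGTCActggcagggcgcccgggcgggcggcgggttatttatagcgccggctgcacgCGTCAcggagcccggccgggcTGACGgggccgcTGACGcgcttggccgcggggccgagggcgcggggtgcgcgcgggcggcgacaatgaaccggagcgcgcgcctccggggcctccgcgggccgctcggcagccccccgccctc
Klf4, chr4:55532476-55532725, minus strand: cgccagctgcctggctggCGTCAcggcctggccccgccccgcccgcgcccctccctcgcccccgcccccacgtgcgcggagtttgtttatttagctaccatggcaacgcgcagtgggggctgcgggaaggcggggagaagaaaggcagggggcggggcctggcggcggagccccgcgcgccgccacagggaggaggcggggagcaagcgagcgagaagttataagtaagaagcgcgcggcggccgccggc
Dusp1, chr17:26508473-26508722, minus strand: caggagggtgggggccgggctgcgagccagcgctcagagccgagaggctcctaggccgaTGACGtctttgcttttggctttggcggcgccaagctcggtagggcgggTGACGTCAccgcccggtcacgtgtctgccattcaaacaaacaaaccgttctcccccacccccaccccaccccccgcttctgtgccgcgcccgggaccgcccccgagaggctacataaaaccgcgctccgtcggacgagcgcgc
Nr4a1 and Nr4a2 each held 4 partial forms, Klf4 held 1, and Dusp1 held 3, of which 2 overlap in a full element. Of the 15 listed immediate early genes with a window, 9 held a partial form. Such a match describes the letters only.

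Klf4, a transcription factor of epithelium and endothelium, was at 2.93, 4.28, 2.87 and 3.36 in VC and 2.24, 2.18, 1.77 and 2.47 in SNT. Every SNT array lay below every VC array, with a difference of −1.19 ± 0.43 between the means. Nr4a2, a relative of Nr4a1 from the same family, was at −1.09, −0.73, 0.16 and 0.44 and −1.12, −1.19, −1.40 and −1.26, a difference of −0.94 ± 0.31, again with no overlap but with VC replicate 1 near the SNT arrays. Dusp1, a phosphatase that ends MAP kinase signaling, was at 2.59, 1.17, 2.13 and 2.31 and 1.03, 1.62, 0.92 and 0.52, and here SNT replicate 2 lay above VC replicate 2. Fos, Fosl2 and Ier3 were −1.05, −0.85 and −0.89 with unadjusted p from 0.0326 to 0.0394. Egr1, Jun and Junb did not pass, at −0.44, −0.12 and 0.24, and on Egr1 and Fos the SNT group was spread by replicate 4, at 3.27 and 0.57 against at most 0.82 and −0.61 on its other arrays. Without SNT replicates 3 and 4, 3 of the 18 passed and the median was −0.34. When single arrays of the 2 groups were left out, between 4 and 6 passed, with 4 without VC replicate 2 and without SNT replicate 3. By the methods' test 3 passed, and with the 2 groups alone or with the liver covariate 4. The groups overlapped in the mean level of the list, which was 0.30, −0.16, 0.45 and 0.66 on the VC arrays and −0.11, 0.0064, −0.28 and −0.48 on the SNT arrays.

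Sik1, a kinase transcribed on cyclic AMP signals, and Map3k6, a stress kinase, belonged to the 12 largest lower genes. Sik1 was at 0.35, 0.11, 0.48 and 0.73 in VC and −0.26, −0.49, −1.14 and −1.86 in SNT, −1.35 ± 0.37 between the means. Map3k6 was at 2.11, 2.74, 1.97 and 1.97 and 1.52, 1.22, 0.95 and 0.22, −1.22 ± 0.26 (unadjusted p = 0.000193), with SNT replicate 4 lowest. In both genes the groups did not overlap. Side by side, the means of Nr4a1 were 5.49 ± 0.42 in VC, 3.53 ± 0.71 in SNT, 3.44 ± 0.46 in SFA and 3.65 ± 0.63 in LNT (mean ± SD). Those of Sik1 were 0.42 ± 0.26, −0.94 ± 0.72, −1.29 ± 0.52 and −0.63 ± 0.36 in the same order. For Nr4a1, Sik1 and Map3k6 the unadjusted p of SNT against SFA was 0.826, 0.357 and 0.506, with differences of 0.091, 0.35 and −0.18. In Nr4a1, Sik1 and Map3k6 VC stood above all 3 of the fiber groups shown here, each of which was compared with the same 4 VC arrays. This did not hold for the immediate early list in LNT. Its mean level was 0.34 to 0.66 on the LNT arrays and −0.16 to 0.66 on the VC arrays. The median difference of the list between LNT and SNT was 0.70, higher in LNT.

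**Figure D3:**
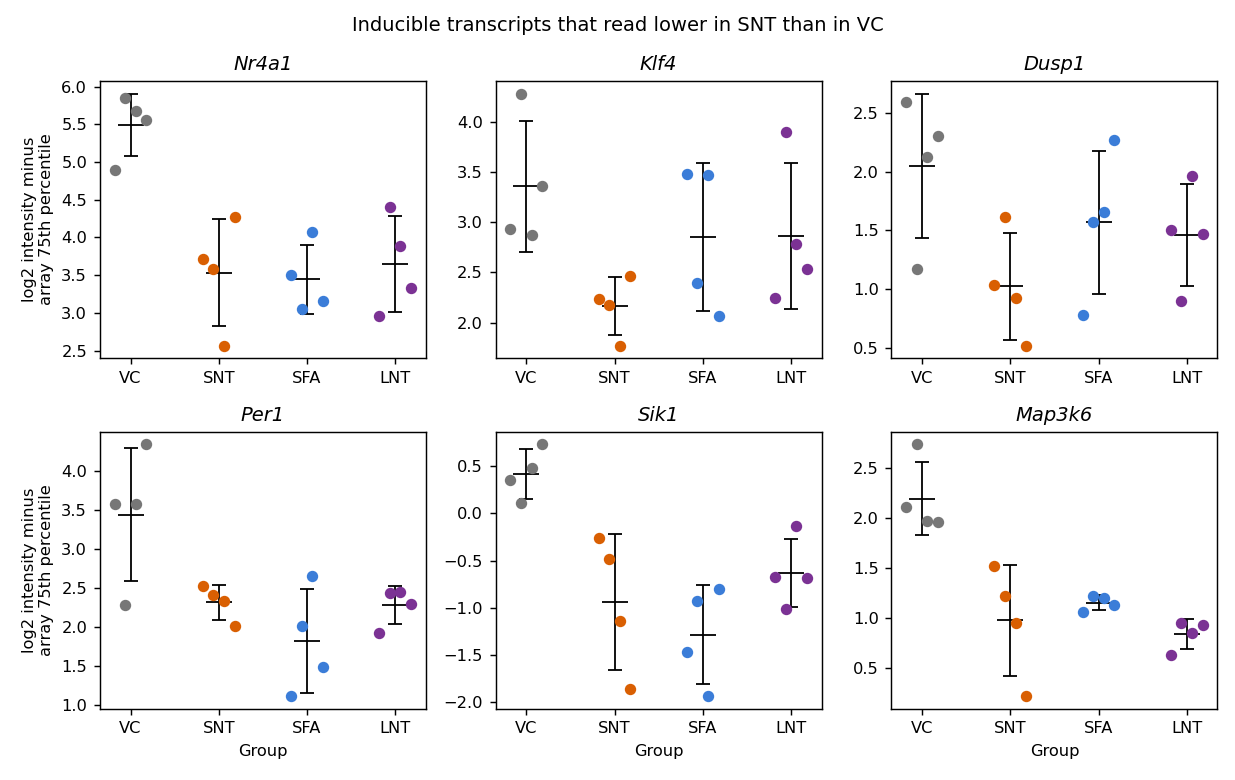
Levels of 6 inducible genes on the 4 arrays of VC, SNT, SFA and LNT, in log2 intensity minus the array's 75th percentile; points are arrays, bars the mean and SD, and the axes do not start at 0. SNT lies below VC in each panel, without overlap for Nr4a1, Klf4, Sik1 and Map3k6, and SFA and LNT lie near SNT for Nr4a1, Sik1 and Map3k6.

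Several glucocorticoid and clock genes, which also change within hours in tissue, read lower in SNT. Of 10 glucocorticoid targets, 3 passed at an unadjusted p under 0.05, all lower, with a median of −0.49. Tsc22d3, which encodes the glucocorticoid-induced leucine zipper, was at 5.32, 5.62, 4.77 and 5.06 in VC and 4.21, 4.51, 4.02 and 4.75 in SNT, with no overlap. Ddit4, an inhibitor of mTOR signaling that the muscle atrophy list also holds, was at 4.39, 4.29, 3.73 and 4.03 and 3.29, 3.11, 3.41 and 3.16, also apart. Its difference was −0.87 ± 0.32. Per1, a clock repressor and the third of them, was −1.12 ± 0.41, with VC replicate 2 at 2.28 inside the SNT range of 2.01 to 2.53. With single arrays of the 2 groups left out, 2 to 3 of the 10 targets passed. Without SNT replicates 3 and 4 it was 2, and without VC replicate 1 as well it was 0, with a median of −0.38. Of 19 clock genes, Per1, Per2 (−1.11) and Ciart (−1.49), which all act as repressors, passed, whereas Arntl, the activator of the loop, was at 0.29 and Nr1d1, its repressor, at 0.15. Per2 and Ciart read lower still in SFA, at means of −3.27 and −6.53 against −2.25 and −4.35 in SNT. Both were dim, and with normexp their differences between SNT and VC were −0.73 and −0.60. Ciart no longer passed without VC replicate 3 (unadjusted p = 0.0859 in limma), VC replicate 4 (0.0596) or SNT replicate 3 (0.0715). Without SNT replicate 4, 5 of the 19 passed as lower and 1 as higher. The hour of day at which each mouse was killed is not given in the sources used here. Of 12 genes of muscle atrophy 3 passed, all lower, Ddit4 among them. Foxo1, a transcription factor active in muscle wasting, was at 2.84, 3.19, 3.32 and 2.80 in VC and 2.45, 2.54, 2.13 and 2.23 in SNT, apart by −0.70 ± 0.20 (unadjusted p = 0.00217). Trim63, the muscle ubiquitin ligase MuRF1, was −0.84 ± 0.35, with SNT replicates 3 and 4 at 3.32 and 3.46 and the others within the VC range, while Fbxo32, its partner in the same process, was at 0.017.

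Some genes of blood cell precursors and of dividing cells read lower in SNT and were highest on VC replicates 3 and 4. Slc4a1, the anion exchanger of red cells, was at −0.59, −0.37, 1.97 and 0.39 in VC and −1.54, −0.72, −2.06 and −0.68 in SNT. All SNT arrays lay below VC, with VC replicate 3 highest. With Epb42, a membrane skeleton protein above background on 2 VC arrays and 0 SNT arrays, 3 of the 10 measured erythroid genes passed, all lower. Without VC replicate 3 or without SNT replicate 1 this was 1 of 10, and without SNT replicate 3 it was 0. Without VC replicate 3 the difference of Slc4a1 was −1.06 in place of −1.60, and with normexp that of Epb42 was −0.23 in place of −1.64. The globin genes Hba-a1 and Hbb-bs, whose near-identical copies a probe may not tell apart, were at −0.20 and 0.39 and did not pass. Mpo, the granule enzyme made in granulocyte precursors, was −2.84 ± 1.34 at −3.29, −2.52, 1.18 and 0.16 in VC and −4.52, −4.59, −5.63 and −1.13 in SNT, so that the groups overlapped, and −1.55 with normexp (unadjusted p = 0.0987). It was the 1 of 13 granulocyte genes to pass, and the list had a median of −0.55. Mki67, the proliferation marker, was at −0.58, −0.33, 1.68 and 0.27 in VC and −1.23, −1.28, −0.88 and −0.88 in SNT. All SNT arrays lay below VC, with a difference of −1.33 ± 0.57 and with VC replicate 3 highest. Without that array it was −0.85 and did not pass (unadjusted p = 0.147). Of the 17 measured cell cycle genes, Mki67 alone passed, 16 had a negative difference, and the median was −0.32. The mean level of the erythroid list was 0.43, 0.86, 2.04 and 1.52 in VC and 0.074, 0.69, 0.12 and 0.47 in SNT.

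Inflammatory genes did not separate SNT from VC. Of the 24 chemokines, cytokines and acute phase genes listed, 1 read higher and 1 lower at an unadjusted p under 0.05, with a median of 0.14 and mean levels of −1.83 to −0.99 in SNT and −1.79 to −0.83 in VC. The higher was Il1rn, the interleukin 1 receptor antagonist, at −5.73, −4.53, −3.15 and −5.47 in SNT and −5.82, −6.40, −6.47 and −6.03 in VC. It was above background on 1 SNT array and 0 VC arrays, so the size of its difference of 1.46 rests on background values. With normexp the difference was 0.37 and did not pass (unadjusted p = 0.190 in limma). Without SNT replicate 3 it was 0.94 and did not pass. Nor did it pass without SNT replicate 2 or without VC replicate 2, 3 or 4. The lower was Il33, an alarmin of stromal and mesothelial cells, at 1.54, 0.87, 0.63 and 1.35 in SNT and 1.64, 3.27, 1.91 and 1.69 in VC, with no overlap and VC replicate 2 far above the rest. Its difference of −1.03 was −0.65 without that array and did not pass. Ccl3 and Ccl4, which attract monocytes and lymphocytes, were 0.74 ± 0.50 and 0.84 ± 0.55 with unadjusted p of 0.159 and 0.141. Cxcl13, which attracts B cells, was −1.02 ± 0.50 (unadjusted p = 0.0546), with SNT replicate 2 at −0.29 and the other SNT arrays at 1.16 to 2.58. Il6 was at 0.18 with an interval of −0.87 to 1.23, and Ccl2, the main monocyte chemokine, at −0.38 with −1.22 to 0.47, which leaves room for a 2-fold difference in each. Of the 24 intervals, 2 lay within 2-fold, against 45.4% over all genes.

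In the same fit, 17 of the 24 genes were called higher in LNT than in SNT, against 6.32% of all genes. LNT replicates 2 to 4 lay on the slide of VC replicate 3, scanned on another day than the SNT arrays. Only LNT replicate 1 shared a slide with SNT arrays, so group and slide can be told apart only in part. The count was 11 with the slide as a block, 13 with the scan day as a block and 5 by the methods' test. Cxcl5, a neutrophil chemokine, was 6.31 higher in LNT, Ccl8 5.32, Saa3, an acute phase protein of macrophages, 5.06, and Il6 3.88. The SNT and LNT arrays did not overlap in Saa3, which lay at −0.51 to 2.12 in SNT, −0.61 to 1.10 in VC and 5.36 to 6.12 in LNT. Among macrophage genes 0 of 20 passed an unadjusted p under 0.05 between SNT and VC, 10 of the 20 intervals lay within 2-fold, and 17 were called higher in LNT than in SNT. Cd68, the lysosomal marker of macrophages, was at 2.5, 1.96, 2.45 and 2.31 in SNT and 1.74, 2.74, 2.5 and 2.20 in VC, a difference of 0.0086 with an interval of −0.71 to 0.72. Adgre1, a surface marker of tissue macrophages, was at 0.11, Csf1r, the receptor for the macrophage growth factor, at 0.066, and Trem2 at −0.074. T cell, B and plasma cell, interferon-stimulated and MHC class II genes had 0 members past an unadjusted p under 0.05 of 11, 11, 16 and 7 measured, with medians of −0.033, −0.63, −0.17 and −0.012. For the B and plasma cell genes no interval lay within 2-fold. Hdc, the histamine-forming enzyme of mast cells, was the exception in its list of 7, at −0.38, −0.94, −0.64 and −0.41 in SNT and −0.17, 0.30, 0.36 and 0.40 in VC, with a difference of −0.82 ± 0.26 and no overlap, whereas Cpa3 and Mcpt4, the proteases that define mast cells, were at −0.32 and −0.22.

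**Figure D4:**
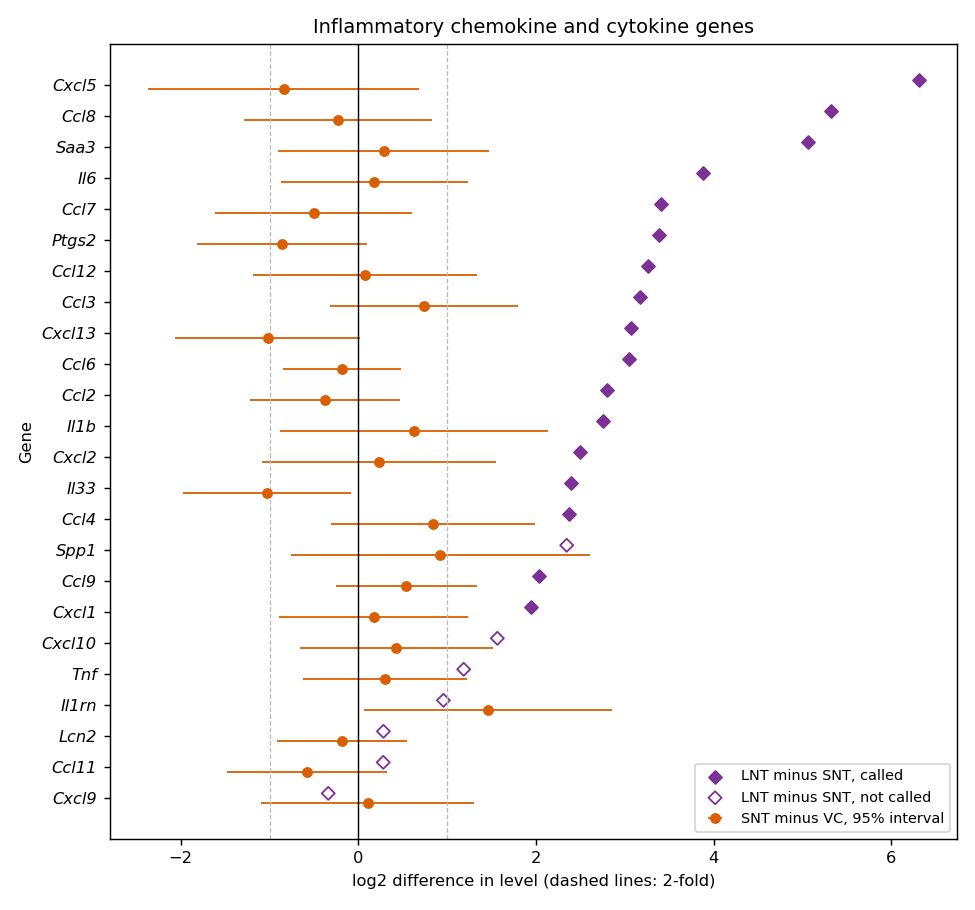
Differences of the 24 inflammatory chemokine and cytokine genes on the log2 scale, with a row per gene, circles and 95% intervals from limma for SNT minus VC and diamonds for LNT minus SNT, filled where called. The circles lie between −1.03 and 1.46 and all but 2 intervals cross 0, whereas 17 diamonds are filled, between 1.94 and 6.31.

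Most mesothelial and slow muscle genes had negative differences. Of 13 mesothelial genes, 10 had a negative difference, 2 passed, and the median was −0.76. Of the 13 intervals, 0 lay within 2-fold, against 45.4% over all genes, so 2-fold differences remain possible. Wt1, the transcription factor of mesothelium, was at 2.80, 1.51, 1.07 and 2.18 in SNT and 2.54, 3.82, 2.58 and 2.82 in VC, −1.05 ± 0.40, with SNT replicate 1 inside the VC range. Lrrn4, a membrane protein of mesothelium, was −0.87 ± 0.34 with SNT replicate 3 at −0.21, and −0.45 without it. Msln, which encodes mesothelin, was −0.59 ± 0.34 (unadjusted p = 0.102) and did not pass. With the slide as a block in the fit 4 of the 13 passed, and with single arrays left out between 0 and 7, with 7 without SNT replicate 1, 1 without VC replicate 2 and 0 without SNT replicate 3. Keratins 8 and 18, which mesothelium and hepatocytes both express, ran the other way at 0.93 and 0.72.

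In slow muscle, Myh7, the slow myosin heavy chain, was at 7.59, 8.27, 7.35 and 7.33 in SNT and 8.14, 9.12, 8.01 and 8.07 in VC, −0.70 ± 0.30, where VC replicate 2 lay apart and SNT replicate 2 lay within the VC range. Without VC replicate 2 it was −0.44. Myh7b, another slow myosin gene, was −0.96 ± 0.45, with SNT replicates 3 and 4 far below the rest at 1.87 and 1.53, and at 0.015 without them. The other 9 slow muscle genes and all 13 fast ones did not pass, with list medians of −0.47 and −0.19. Ppargc1a, the regulator of mitochondrial genes, was −1.07 ± 0.43, and −0.68 without VC replicate 2, while the other 16 genes of oxidative phosphorylation did not pass and 12 of the 17 intervals lay within 2-fold. Of 12 metalloproteinases and inhibitors 1 passed. This was Timp4, a metalloproteinase inhibitor of muscle, at 1.92, 2.0, 1.79 and −0.23 in SNT and 3.08, 2.78, 2.32 and 2.01 in VC, without overlap, with SNT replicate 4 far below. Its difference of −1.17 ± 0.46 was −0.64 without that array. Fibroblast and matrix genes had 0 of 14 past the unadjusted threshold, with 13 negative and a median of −0.27, Col1a1 at −0.21 and Col3a1 at −0.29, and 9 of the 14 were called higher in LNT than in SNT. Of the 13 genes of TGF-beta signaling and fibrosis 0 passed and 11 were negative. Ccn2, which encodes connective tissue growth factor, had every SNT array below every VC array, at 3.5, 3.46, 2.80 and 3.81 in SNT and 3.99, 4.76, 3.84 and 3.81 in VC, yet with a difference of −0.71 ± 0.42 its unadjusted p was 0.107.

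Single members passed, as lower in SNT, in the lists of 7 smooth muscle, 15 adipocyte and 10 Schwann cell genes. Lmod1, an actin regulator of smooth muscle, was −1.38 ± 0.65, with SNT replicate 3 at −6.96 and the other SNT arrays at −3.95 to −3.79, and without replicate 3 its difference was −0.62. Cidec, a lipid droplet protein of fat cells, was −0.63 ± 0.29, and Mbp, a myelin protein, was −0.77 ± 0.27. No member passed among the measured genes of blood endothelium (10), lymphatic endothelium (5), muscle regeneration and denervation (13), fatty acid oxidation (16), glycolysis (10), heat shock (10), ribosomal proteins (12) or lung epithelium (5), with list medians between −0.26 and −0.058. In the heat shock and glycolysis lists VC replicate 2 stood apart from the other VC arrays, at mean levels of 6.05 and 8.07. The intervals of 11 of the 12 ribosomal protein genes, 11 of the 16 of fatty acid oxidation and 8 of the 10 of glycolysis lay within 2-fold.

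**Figure D5:**
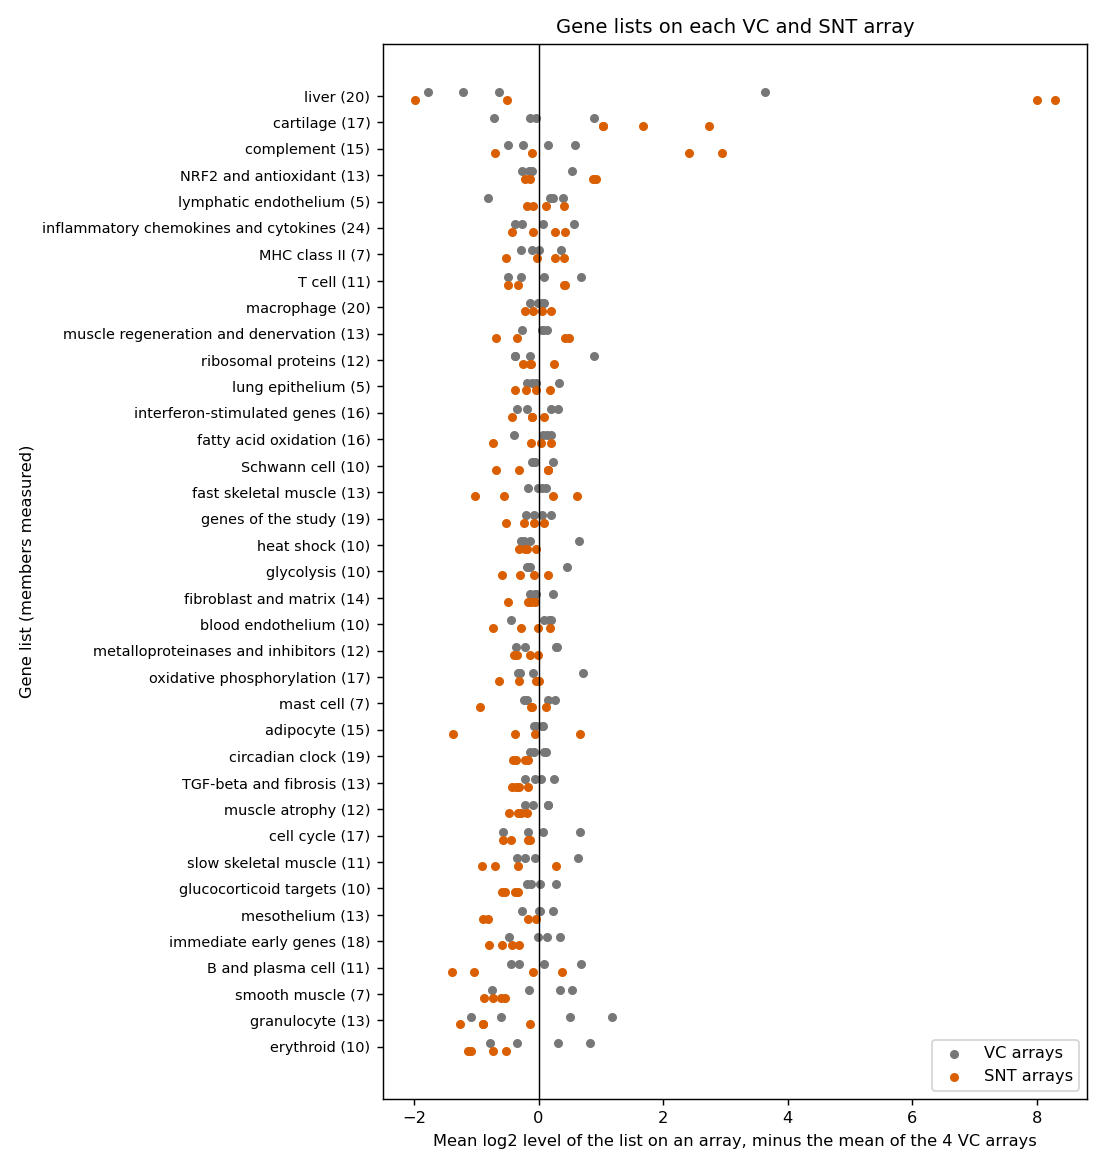
Mean level of each gene list on the 4 VC arrays (grey) and the 4 SNT arrays (orange), on the log2 scale and relative to the mean of the VC arrays, with the number of measured genes in parentheses. The liver and complement lists are high on 2 SNT arrays, the cartilage list, drawn up after its genes were seen, is above VC on all 4, and most other lists overlap between −1 and 1.

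Genes that the study followed by other assays showed no difference past the adjusted threshold. Cdkn2a, the tumor suppressor locus Ink4a/Arf, was at −2.12, −2.83, −1.12 and −3.09 in SNT and −1.92, −1.80, −0.84 and −2.75 in VC, −0.46 ± 0.45 with overlapping groups. Nf2 and Bap1, suppressors lost in mesothelioma, were at −0.37 and −0.29, with another probe of Nf2 at 0.47, and Trp53 at 0.39 with a wide interval of −1.87 to 2.64, with SNT replicate 4 and VC replicate 2 more than 2 below the other arrays of their groups. The signaling kinases Akt1 and Mapk3 had intervals within 2-fold, of −0.49 to 0.55 and −0.61 to 0.81. Stat3 was at −0.34 ± 0.25 and Mtor at −0.42 ± 0.27, but the other tested probes of these genes had the opposite sign, at 0.089 and 0.30. Src, which was above background on 2 SNT arrays and 1 VC array, was at 0.73 ± 0.60. The leukocyte marker Ptprc (CD45), the T cell gene Cd3e and the neutrophil gene Ly6g were at −0.15, 0.36 and −0.16. Of the 19 genes, 2 passed at an unadjusted p under 0.05, Mki67 and Wt1, both lower.

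The other large negative differences belonged to genes of no common list. Mcf2l, a guanine nucleotide exchange factor, was at 2.28, 2.66, 2.16 and 2.03 in SNT and 3.45, 4.11, 3.34 and 3.08 in VC, −1.21 ± 0.29 (unadjusted p = 0.00056). All 4 probes of this gene differed in the same direction. Dusp18, a phosphatase, was −1.43 ± 0.44, Zdhhc23, a palmitoyltransferase, −1.20 ± 0.34, Folh1, a membrane carboxypeptidase, −1.73 ± 0.54, and Slitrk4, a neuronal membrane protein, −1.57 ± 0.45. With normexp Folh1 was −0.72, and Slitrk4 was −0.50 and did not pass (unadjusted p = 0.0652). Ms4a4a, a membrane protein of alternatively activated macrophages, was −1.31 ± 0.54 and was called 3.35 higher in LNT than in SNT, but without VC replicate 2 its difference from VC was −0.82. Alpk1, a kinase that senses bacterial sugars, had the largest negative difference of the 12, −2.10 ± 0.76, but VC replicate 2 was at 0.21 and the other VC arrays were at −4.58 to −3.96. It was above background on all 4 VC arrays and 0 SNT arrays. Without VC replicate 2 the difference was −0.98 and SNT was at least 1.62-fold lower, against at least 3.53-fold with all arrays. These bounds were set by the dimmest probes above background on the SNT arrays. With normexp it was −0.71 and did not pass (unadjusted p = 0.132).

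Between the short fibers, SNT and SFA, limma called 0 of 36930 probes (0%) and 2152 (5.83%) had an unadjusted p under 0.05, with 2.21% of genes higher and 3.97% lower in SNT. The 5.83% is near the share of 0.05 that this threshold passes when no probe differs. By the test in the study's methods, 2836 probes differed 2-fold, 323 of them at an unadjusted p under 0.05 and 0 after adjustment. SNT and SFA differed in dose as well as in material. Among the 12 higher genes, SNT lay above SFA in Cytl1 by 1.97 (unadjusted p = 0.00225) and in Mia by 1.85 (unadjusted p = 0.00191), and SFA replicate 1 lay within the SNT range for both.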

How the data were processed

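Diaphragm RNA of 20 mice was hybridised to 1-colour whole-genome Agilent arrays, 1 array per mouse. The authors scanned the arrays and extracted spot intensities with Agilent Feature Extraction 10.7.3.1, whose deposited processed signal intensity is background-subtracted, and they deposited 1 file per array. A further deposited table held log2 levels as the authors' group means, with fold changes and p-values from their own comparisons, of which only the means were used, as an alternative. Over 36930 probes the differences between group means from that table and from the arrays had a Pearson r of 0.999999.

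From these intensities, log2 of the processed signal minus the 75th percentile of each array was computed for 59305 noncontrol spots, leaving out outlier flags, and averaged to 55681 probes. A probe entered the test if 4 or more of the 20 arrays read it well above background. Probe accessions were named through the RefSeq gene table (GRCm38.p6), which held 27229 of them, and 2837 symbols were updated; probe positions are those of the scanner files (NCBI37). The 20 arrays were fitted together in limma 3.58.1 (R 4.3.3) with 1 mean per group and 15 residual degrees of freedom. A call required a difference of 2-fold and a Benjamini-Hochberg adjusted p below 0.05, and all p-values are two-sided. The fit was tested on simulated data. The number of arrays limits the precision.

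Genes were represented by the tested probe with the highest mean over the arrays. The 12 genes named in each direction had the largest differences among genes with no overlap between groups, an unadjusted p under 0.05 and the higher group above background on all 4 arrays. Further named genes were the study's own 19, and from each of 36 lists (474 genes, 454 measured) up to 4 members with the smallest p and the markers that define it; the cartilage list, 3830403N18Rik and further list members were chosen after their values were seen. The members and lists were chosen with earlier results of these data known. Promoter windows came from RefSeq (GRCm38.p6). The alternatives tried were quantile normalization, normexp background, other filters, averaging by gene, slide, scan day and replicate blocks, the 2 groups alone, array weights, covariates, leaving out arrays and the unequal-variance test of the study's methods.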

Additional observations from a re-analysis of the deposited data

Results flagged for a closer look

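By Dixon's criterion for groups of 4, 12 of 232 groups of 4 arrays tested had an array standing apart, over the VC and SNT arrays of 79 named genes and 37 lists. The criterion flags about 1 in 20 groups by chance, but many of these genes were chosen at an unadjusted p under 0.05. Nothing is therefore read from the share. Over all tested probes, VC replicate 2 stood apart for 12.3% and SNT replicate 4 for 7.46%. VC replicate 2 was the array in 6 of the 12 groups, with levels of 0.21 in Alpk1, −4.39 in Trp53, 3.27 in Il33 and 9.12 in Myh7, and mean levels of 8.07 in the glycolysis list and 6.05 in the heat shock list. SNT replicate 4 stood apart at −4.47 in Trp53 and −0.23 in Timp4. The other 4 were VC replicate 4 at −3.61 in Cyp26a1, SNT replicate 1 at 2.23 in Mbp, SNT replicate 3 at −6.96 in Lmod1 and VC replicate 3 at 0.22 in the mean of the Schwann cell list. VC replicate 2 and SNT replicate 4 also had the lowest index of probes far from the 3′ end against probes near it, and the part of this in their levels was not tested.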

How the results depend on the processing

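The count of 0 called probes in SNT against VC held under every alternative run except array weights, with 2. Counts at an unadjusted p under 0.05 moved more. The 616 higher probes became 1176 with no filter on dim probes, 390 with probes above background on all arrays, 366 with probes averaged by gene, 383 with a slide block, 343 with the 2 groups alone, 3995 with array weights, 403 with the liver list as covariate, 1166 with the index of 5′ against 3′ probes as covariate and 252 by the methods' unequal-variance test. The 672 lower probes became 1022 with quantile normalization, 441 averaged by gene, 254 with the 2 groups alone, 1850 with array weights, 362 with the liver covariate, 430 without SNT replicates 3 and 4, 1245 with array brightness as covariate, 1341 with the 5′ to 3′ index and 326 by the methods' test. The 14168 intervals within 2-fold became 28866 with normexp, 8881 averaged by gene, 8369 with the 2 groups alone, 21957 with array weights, 9428 without SNT replicates 3 and 4, 7344 without these and VC replicate 1 (chosen after the data were seen) and 7408 by the methods' test. Averaging by gene, filters and omitted arrays change the number of features or arrays; for the other alternatives the cause was not tested. With single arrays left out, 0 to 0 probes were called, 215 to 1458 were higher (215 without SNT replicate 3, 401 without VC replicate 3, 1347 without SNT replicate 1 and 1458 without SNT replicate 2), 423 to 1176 were lower (423 without SNT replicate 3 and 1176 without SNT replicate 1) and 10419 to 13907 intervals lay within 2-fold. SNT against SFA gave 1 call with quantile normalization and 5861 with array weights, and 0 to 0 with single arrays left out. The 17 inflammatory genes called in LNT against SNT became 11 with a slide block and 5 by the methods' test, and 14 to 19 with single arrays left out. Myh7b turned sign, at 0.015 without SNT replicates 3 and 4 and 0.028 without VC replicate 1 as well. Of the 50 named genes with an unadjusted p under 0.05 it was the one that did, over 1234 values, while 15 of the 29 others turned sign under some alternative. With the replicate number as a block, 0 probes were called, 539 were higher and 634 lower; same-numbered VC and SNT arrays had correlations of their deviations of −0.29, −0.18, −0.17 and −0.37, so the numbers did not pair the arrays. The authors' table holds group means only and gave no counts. Probes near background limited the sizes of Il1rn, Alpk1, Ucma, Col10a1, Snorc, Meltf, Epb42, Cyp26a1, Cyp2c55 (2.26, and 0.96 with normexp), Acan, Folh1, Slitrk4, Per2 and Ciart, which the normexp offset made at least 1.5 times smaller.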
